A study of Mus musculus with 23 samples.

Results

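CD41+KIT+Tie2- progenitors that formed while RUNX1-ETO was being expressed were compared with the HE2 cells from which such progenitors arise. The comparison rests on 5 of the 23 arrays of the series, 3 of induced HE2 cells and 2 of induced progenitors, and on all 15202 genes that passed the filter on low values. The cells came from differentiating mouse embryonic stem (ES) cells that carry human RUNX1-ETO under a doxycycline (Dox)-inducible promoter and keep both normal Runx1 alleles, and the labels give the strain as C57BL/6. Dox was added to the blast culture before the cells were sorted, so that "induced" (+Dox) means cells in which RUNX1-ETO had been switched on and "uninduced" (−Dox) means the same line without Dox. HE2 cells are haemogenic endothelial cells that have gained CD41 and still carry KIT and Tie2, and progenitors carry KIT and CD41 and have lost Tie2. The same step in uninduced cells, 3 HE2 and 2 progenitor arrays, served as the control. All groups share the ES cell line, the culture and the inducible transgene, so that the comparison describes 1 engineered line. The titles call the arrays biological replicates and no label says how far the cultures were separate. P values thus measure the spread between arrays of a group, pooled over all groups in the fit and not only those compared.

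Blood cells first form when haemogenic endothelial cells round up, switch off endothelial genes and switch on blood genes, a step known as the endothelial-haematopoietic transition (EHT). RUNX1 drives this step by activating blood genes and by shutting down the endothelial programme, partly through GFI1 and GFI1B. RUNX1-ETO, the product of the t(8;21) translocation of acute myeloid leukaemia, joins the DNA-binding part of RUNX1 to the corepressor ETO (RUNX1T1) and interferes with the genes that RUNX1 normally controls.

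Each value below is a normalized log2 intensity of 1 probe per gene, and a difference of 1 on this scale is 2-fold. Runx1t1, the mouse gene whose human counterpart forms the ETO part of the transgene, read 11.5 to 12.5 on the 3 induced HE2 arrays and 11.05 and 12.30 on the 2 induced progenitor arrays, compared with 9.74 to 10.1 and 7.50 and 7.92 on the uninduced arrays of the same stages. How far this mouse probe reads the human transgene was not tested. Kit, whose protein was used for the sort, lay between 12.6 and 13.3 on the 5 induced arrays. Tek, which encodes Tie2, read 12.97, 13.30 and 10.95 in induced HE2 and 10.91 and 11.29 in induced progenitors. Itga2b, which encodes CD41, read 9.58, 10.75 and 7.73 in induced HE2 and 10.41 and 12.67 in induced progenitors. Induced HE2 array 3 was thus the lowest of its group for both genes, and its Itga2b value lay within the range of induced HE cells, 6.92 to 8.02, the stage before CD41 is gained. Its Itga2b value is low for its label. Uninduced HE cells, sorted without CD41, read 9.49 to 11.46, however, a range that holds induced HE2 arrays 1 and 2. This value alone thus cannot decide whether the label holds, and results that rest on induced HE2 array 3 are given with and without it. Across 15098 genes induced HE2 array 3 correlated with the induced HE arrays at r = 0.958 to 0.981. With the other induced HE2 arrays it correlated at r = 0.966 and 0.975. Induced HE array 1 also correlated more closely with an HE2 array, array 1 (r = 0.982), than with any other HE array (r = 0.979). So did induced HE array 2, but its closest HE2 array was array 3 itself (r = 0.981). Induced HE2 array 3 reached at most r = 0.944 with an induced progenitor array. Induced HE2 arrays 1 and 2 reached 0.974 and 0.972. Induced progenitor array 2 lay on another slide than the other 4 arrays and was scanned on another day, together with the myeloid progenitor arrays. It had 48.8% of its spots well above background, compared with 65.6 to 68.0% on the other 4. Induced progenitor array 1 and induced HE2 array 1 shared a slide, and induced HE2 arrays 2 and 3 shared another, so that the slide of induced progenitor array 2 holds no HE2 array. It does hold 1 more uninduced progenitor array, a technical replicate by its title, which the fit leaves out.

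From HE2 to progenitors with Dox, 307 genes were upregulated (2.02% of the genes tested) and 812 were downregulated (5.34%), 7.36% in all, at an unadjusted P of at most 0.001 in limma and a change of at least 2-fold. The highest Benjamini-Hochberg adjusted P among them was 0.0117. The median change of all 15202 genes was -0.05. The progenitor arrays lay on one side of the HE2 arrays on all of these genes, 1 of which (Rgs16, looked up after its values were seen) had no value on induced progenitor array 2, and over all genes tested this was the case for 14.8% in the upward and 20.9% in the downward direction. Against the HE2 mean, 240 of the 307 and 672 of the 812 moved at least 2-fold on each progenitor array taken alone. Without induced HE2 array 3 the counts were 265 and 587, of which 246 and 564 were among the original calls. Without induced progenitor array 2 they were 251 and 521, of which 183 and 448 were among them, and without induced progenitor array 1 they were 432 and 737, with 190 and 566 shared. Because the groups did not overlap on any called gene, leaving out 1 of these arrays could not turn its direction. With the slide as a block 250 were upregulated and 491 downregulated, of which 616 in all were among the original calls. With the slide as a block and the technical replicate added to the uninduced progenitors, an analysis chosen after seeing the data, the counts were 298 and 681, of which 837 in all were among them. In bulk samples like these, fewer cells that express a gene and less RNA per cell cannot be told apart.

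**Figure D1:**
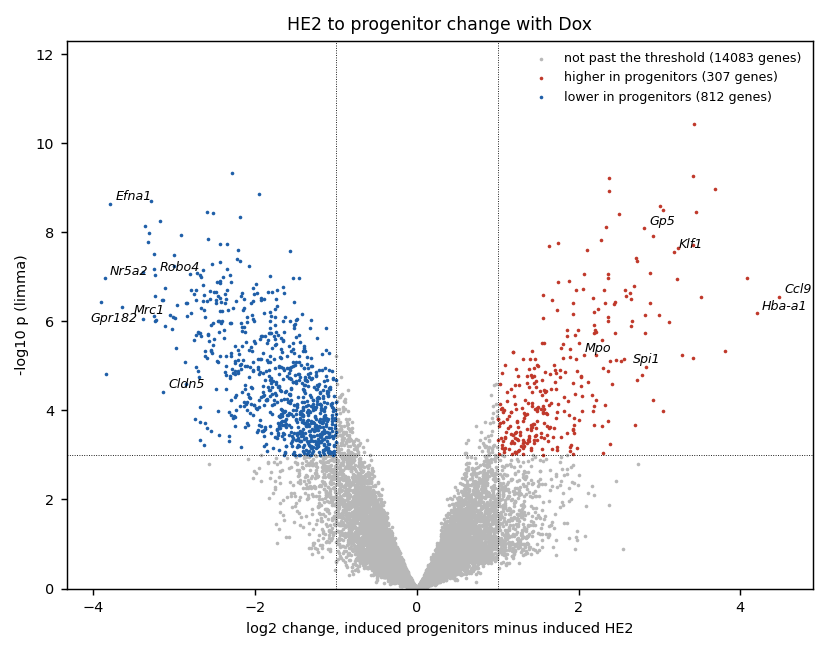
Each point is 1 of 15202 genes, with its log2 change from induced HE2 to induced progenitors on the x axis and the -log10 P of limma on the y axis, and dotted lines mark the 2-fold change and the P of 0.001. The 812 downregulated genes (blue) outnumber the 307 upregulated genes (red), and Ccl9 and Hba-a1 lie at the far right while Gpr182 and Nr5a2 lie at the far left.

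Promoters of 4 called genes are shown as members of 4 of the gene lists below, in each of which only some genes were called: Klf1, the master regulator of erythroid genes, Gp5, a platelet receptor subunit, and Mpo, the myeloperoxidase of neutrophils, rose, and Notch4, the endothelial Notch receptor, fell. The windows hold the 250 bases before the annotated start in RefSeq on GRCm38.p6 and are printed 5′ to 3′ on the strand of the gene. Capitals mark the letters TGTGGT (the core of RUNX sites), AGATAA (of GATA sites) and AGGAAG (of ETS sites) on either strand.
Klf1 (chr8:84901732-84901981, plus strand): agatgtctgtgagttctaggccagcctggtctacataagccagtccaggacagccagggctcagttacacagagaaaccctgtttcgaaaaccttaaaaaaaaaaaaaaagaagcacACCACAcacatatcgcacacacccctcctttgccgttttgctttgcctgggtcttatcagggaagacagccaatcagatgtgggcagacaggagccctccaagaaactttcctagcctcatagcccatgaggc
Gp5 (chr16:30310782-30311031, minus strand): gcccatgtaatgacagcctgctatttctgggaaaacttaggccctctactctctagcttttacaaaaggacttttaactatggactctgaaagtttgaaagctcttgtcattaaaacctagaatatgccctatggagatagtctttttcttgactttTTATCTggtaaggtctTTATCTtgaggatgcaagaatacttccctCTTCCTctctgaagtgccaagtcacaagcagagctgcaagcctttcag
Mpo (chr11:87793534-87793783, plus strand): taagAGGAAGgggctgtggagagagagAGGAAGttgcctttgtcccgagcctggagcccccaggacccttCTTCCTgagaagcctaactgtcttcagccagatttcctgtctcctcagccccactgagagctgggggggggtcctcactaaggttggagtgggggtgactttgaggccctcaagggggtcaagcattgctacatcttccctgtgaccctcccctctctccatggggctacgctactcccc
Notch4 (chr17:34564045-34564294, plus strand): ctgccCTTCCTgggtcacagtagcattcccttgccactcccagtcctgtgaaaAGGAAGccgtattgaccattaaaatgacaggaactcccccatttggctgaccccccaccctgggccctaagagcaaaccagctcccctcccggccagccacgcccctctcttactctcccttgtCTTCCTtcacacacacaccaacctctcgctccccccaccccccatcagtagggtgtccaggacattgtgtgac

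The window of Klf1 held 1 match to TGTGGT, that of Gp5 held 2 to AGATAA and 1 to AGGAAG, and those of Mpo and Notch4 held 3 each to AGGAAG. Of the 307 upregulated genes 233 had windows, 291 in all, of which 16.5% held TGTGGT, 14.8% AGATAA and 38.8% AGGAAG. Of the 812 downregulated genes 597 had windows, 806 in all, of which 86 held TGTGGT, 6.45% AGATAA and 31.3% AGGAAG. Over the 15221 windows of 12066 genes tested they were 11.1%, 7.07% and 28.5%, and of all 32851 windows of the RefSeq set 4614 held TGTGGT, 9.99% AGATAA and 29.5% AGGAAG. The base composition differed as well, with a median GC content of 54.4% for upregulated, 59.6% for downregulated and 58.8% for all tested genes. These shares are a description, and the part of base composition in them was not tested.

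Endothelial genes fell. Of 30 endothelial identity genes, 19 were downregulated and 1 was upregulated with Dox, and the other 10 did not pass the threshold, with a median of -1.83 compared with -0.05 for all genes tested. Averaged over the 30 genes, the induced HE2 arrays read 13.36, 13.39 and 13.67 and the induced progenitor arrays 11.82 and 11.82, while uninduced HE2 arrays read 12.08 to 12.33 and uninduced progenitor arrays 10.19 and 10.24. The mean level of the induced progenitors thus lay between those of uninduced HE2 and uninduced progenitors. Without induced HE2 array 3, 18 of the 30 were downregulated, and without induced progenitor array 2, 14 were.

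Robo4, a receptor that stabilises endothelial junctions, read 14.34, 13.997 and 15.34 in induced HE2 and 11.49 and 11.15 in induced progenitors. Both progenitor arrays lay well below all HE2 arrays, and Robo4 fell by 3.24 ± 0.37 (SE, adjusted P = 2.39e-05). Cldn5, the claudin of endothelial tight junctions, read 13.93, 12.71 and 13.98 in HE2 and 10.93 and 9.88 in progenitors and fell by 3.13 ± 0.58 (adjusted P = 0.00107), although without induced progenitor array 2 the fall of 2.61 no longer passed the threshold. Cdh5, the VE-cadherin gene, read 14.42, 14.69 and 14.76 in HE2 and 13.06 and 12.29 in progenitors. It thus fell without overlap, by 1.94 ± 0.29 (adjusted P = 0.00015). Icam2, Mmrn2, Cd93 and Esam, which encode endothelial surface and matrix proteins, fell by 2.65, 2.63, 2.52 and 1.75. Ramp2, which pairs with the calcitonin receptor-like receptor to bind adrenomedullin, fell by 1.83.

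Several receptors that define endothelium did not pass the threshold. Kdr, the main receptor for VEGFA, changed by -0.97 (adjusted P = 0.0621), Flt1, its decoy receptor, by -1.03 (adjusted P = 0.0215) and Pecam1 by 0.32 (adjusted P = 0.848), and Tie1 and Eng by -0.25 and -0.85. Pecam1 read 10.52, 10.996 and 8.97 in induced HE2 and 10.07 and 10.90 in induced progenitors, and Tie1 read 13.85, 13.96 and 12.10 and then 12.97 and 13.14. Induced HE2 array 3 was the lowest array for both genes, and without it Pecam1, Tie1 and Eng changed by -0.27, -0.85 and -1.39 and did not pass. The signals of these 5 genes were well above background on all 5 arrays. Vwf, which encodes the von Willebrand factor of endothelium and platelets, was the exception in the list and rose. It read 8.93, 8.88 and 9.78 in induced HE2 and 10.42 and 11.13 in induced progenitors, with both progenitor arrays above all HE2 arrays (1.58 ± 0.31, adjusted P = 0.00206). Without induced progenitor array 2 its rise was 1.22 and did not pass.

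**Figure D2:**
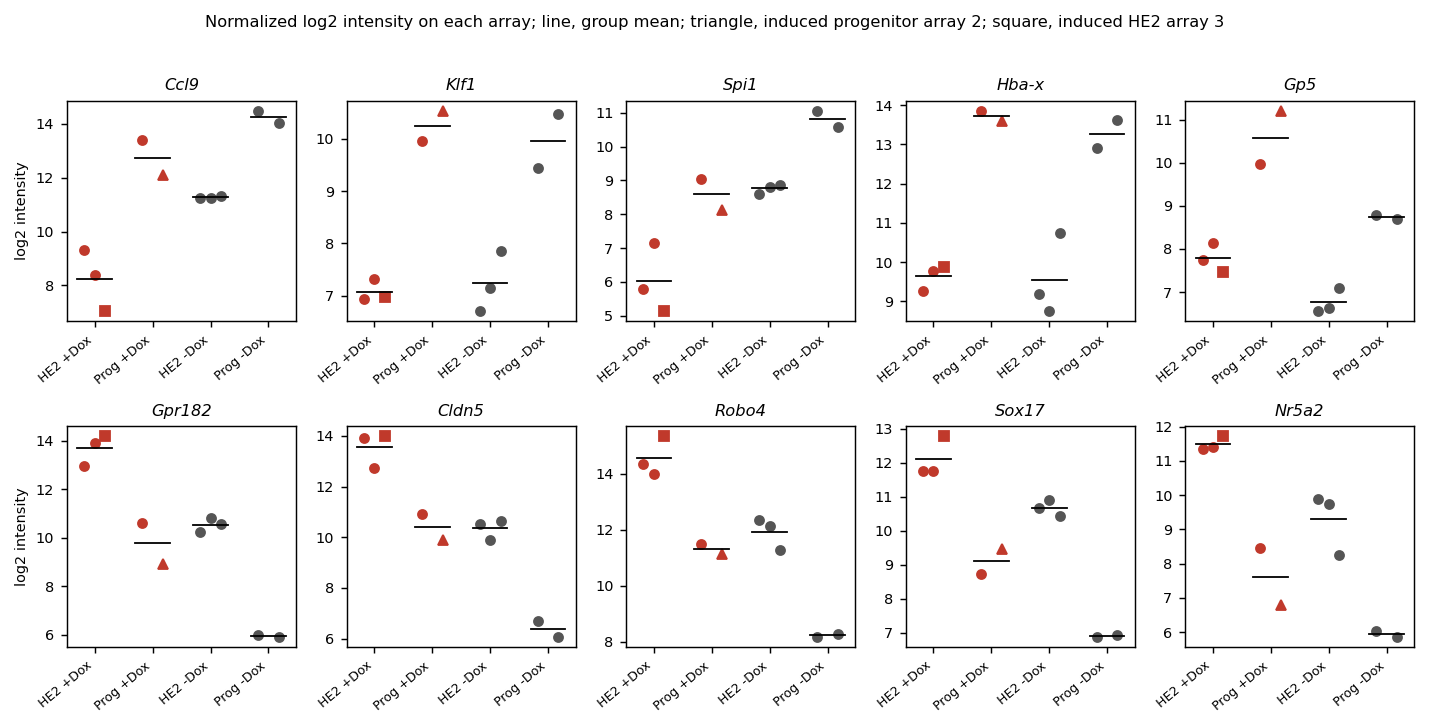
The y axis of each panel is the normalized log2 intensity of 1 gene, each point is 1 array (triangle, induced progenitor array 2; square, induced HE2 array 3) and the line is the group mean, for induced (red) and uninduced (grey) HE2 and progenitors. Ccl9, Klf1, Spi1, Hba-x and Gp5 in the upper panels are higher on both induced progenitor arrays than on all induced HE2 arrays, and Gpr182, Cldn5, Robo4, Sox17 and Nr5a2 in the lower panels are lower. In the lower panels the induced progenitors lie above the uninduced progenitors.

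Transcription factors that maintain endothelium fell with these genes. Of 24 endothelial transcription factor genes, 11 were downregulated and none was upregulated, with a median of -1.13, and 9 and 7 were downregulated without induced HE2 array 3 and without induced progenitor array 2, 7 with the slide as a block and 5 with only the groups compared in the fit. Sox17, which specifies arterial and haemogenic endothelium, read 11.75, 11.76 and 12.77 in induced HE2 and 8.73 and 9.47 in induced progenitors, so that the groups lay far apart, and fell by 3.00 ± 0.34 (adjusted P = 1.92e-05). Epas1, which encodes HIF2A, read 14.82, 14.60 and 15.33 in HE2 and 12.28 and 11.98 in progenitors and fell by 2.79. A second probe for Epas1, nearly as bright, changed by 0.39, and another, dimmer probe by -2.87, so that its probes disagreed. Klf4, a factor of quiescent endothelium, fell by 1.81 and Elk3, an ETS family repressor, by 1.49. Ets1, an ETS factor used by endothelium and blood, fell by 1.81, and without induced progenitor array 2 its change of -1.37 did not pass. A second probe for Ets1, nearly as bright, changed by -0.89. Other factors that endothelium and blood both use did not pass. Tal1 read between 14.59 and 14.84 on the 5 induced arrays, and Gata2, Fli1 and Lmo2 changed by -0.35, -0.39 and -0.52, below the threshold.

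Genes of the Notch pathway and of arterial identity fell in part. Of the 18 tested of 20, 7 were downregulated and none was upregulated (median -1.23), and 3 were with the slide as a block or with only the groups compared in the fit. Notch4, the endothelial Notch receptor, read 12.28, 11.83 and 12.67 in induced HE2 and 10.13 and 9.77 in induced progenitors and fell by 2.31 ± 0.32 (adjusted P = 8.4e-05). Efnb2, the arterial ephrin ligand, fell by 2.45 and Hey1, a Notch target, by 1.88, although a second, dimmer probe for Efnb2 changed by -0.36. Notch1, Jag1 and Rbpj, the receptor, ligand and DNA-binding partner that serve Notch signalling in many cell types, changed by -0.30, 0.09 and 0.03 and did not pass.

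Of 28 tested genes of TGF-beta and BMP signalling, 6 were downregulated and none was upregulated (median -1.15). The count was 4 without induced progenitor array 2, 10 without induced progenitor array 1, 3 with the slide as a block and 2 with only the groups compared. Among ligands, Bmp6 read 9.74, 10.21 and 9.78 in induced HE2 and 7.95 and 7.06 in induced progenitors and fell by 2.40 ± 0.32 (adjusted P = 5.72e-05), and Bmp2 fell by 1.68. Among receptors, Acvrl1 (ALK1), the BMP receptor of endothelium, fell by 1.87 and Acvr1 by 1.66. The BMP targets Id1, Id2 and Id3 changed by -1.26, -1.76 and -1.17 and did not pass. Tgfb1 changed by 1.21, below the threshold. Of 27 tested collagen and matrix genes, 7 were downregulated (median -0.93), among them the basement membrane genes Nid1 and Nid2, by 2.20 and 2.06, and Sparc, by 1.35. The count was 4 with the slide as a block or with only the groups compared. Of 24 focal adhesion and caveolae genes 5 were downregulated (median -0.27), with Cav2, a caveolin, falling by 2.14, and 3 were without induced HE2 array 3 or induced progenitor array 2, or with only the groups compared, and 2 with the slide as a block.

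The largest falls with Dox, named by rank alone, included several genes with known roles in vessels. Gpr182, an atypical chemokine receptor of endothelium, read 12.96, 13.90 and 14.17 in induced HE2 and 10.62 and 8.93 in induced progenitors. Its progenitor arrays lay below every HE2 array by more than 2 units, and it fell by 3.90 ± 0.50 (adjusted P = 4.29e-05). Efna1, an ephrin ligand, read 12.58, 13.32 and 13.77 in HE2 and 9.52 and 9.34 in progenitors and fell by 3.79 ± 0.34 (adjusted P = 3.82e-06). Nr5a2, a nuclear receptor, read 11.33, 11.39 and 11.71 in HE2 and 8.46 and 6.78 in progenitors and fell by 3.86 ± 0.45 (adjusted P = 2.5e-05). On all of these the groups were far apart, and induced progenitor array 2 was the lower of the 2 progenitor arrays. Mrc1, the mannose receptor of macrophages and of sinusoidal endothelium, fell by 3.64, and its progenitor arrays, 8.52 and 9.47, were again below the HE2 arrays, 12.01 to 13.36. The other 11 of the 15 largest falls, with changes of -3.84 to -3.24, were Asb4, Ucn, Sost, Pcdh17, Eml1, Ramp3, Ptprr, Tmem255a, Oit3, Fbxl7 and Ushbp1. Second, dimmer probes changed by -0.27 for Asb4, -1.18 for Eml1, -1.55 for Nr5a2 and -0.86 for Tmem255a. Sost and Tmem255a were well above background on 1 of 2 induced progenitor arrays. The 11 include Sost, an extracellular WNT inhibitor, Ramp3, a partner of the calcitonin receptor-like receptor, and Pcdh17, a protocadherin. The 15 genes kept their calls in each of 20 alternative analyses.

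Blood genes rose in part. Of 25 pan-leukocyte genes, 14 were upregulated and none was downregulated (median 1.46). Ptprc, which encodes CD45, read 6.03, 6.08 and 5.55 in induced HE2 and 8.91 and 7.64 in induced progenitors and rose by 2.39 ± 0.38 (adjusted P = 0.000351). The HE2 arrays were uniformly low and both progenitor arrays were higher. Coro1a, an actin regulator of leukocytes, read 10.79, 10.37 and 10.45 in HE2 and 13.37 and 12.43 in progenitors and rose by 2.36 ± 0.32 (adjusted P = 7.16e-05). Vav1, a guanine nucleotide exchange factor of blood cells, rose by 1.96, Selplg, the P-selectin ligand, by 1.97 and Itgal, an integrin of leukocytes, by 1.42. Spn (CD43) and Laptm5 changed by 1.26 and 1.46 and did not pass. The count was 13 without induced HE2 array 3 and 12 without induced progenitor array 2.

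Genes of neutrophils and macrophages were split. Of the 24 tested of 25, 9 were upregulated and 1, Mrc1, was downregulated (median 0.82). Mpo, the myeloperoxidase of neutrophil granules, read 11.30, 11.89 and 11.90 in induced HE2 and 14.05 and 14.39 in induced progenitors and rose by 2.52 ± 0.41 (adjusted P = 0.00035). Ncf1, a subunit of the phagocyte NADPH oxidase, read 6.98, 6.43 and 6.09 in HE2 and 9.88 and 9.14 in progenitors and rose by 3.01 ± 0.28 (adjusted P = 3.84e-06). The adaptors Tyrobp and Fcer1g, which signal for immune receptors, rose by 2.47 and 2.41. The granule protease genes Elane, Prtn3 and Ctsg changed by -0.28, 0.81 and 0.13, below the threshold. Csf1r, the receptor for macrophage colony-stimulating factor, rose by 1.60 (adjusted P = 0.00542) but did not pass without induced HE2 array 3 (1.47) or without either progenitor array (1.73 and 1.48). Probes of Csf1r also disagreed, with changes of 0.11 and 0.97 for the dimmer 2. Without induced HE2 array 3, 6 of the 24 were upregulated, and without induced progenitor array 1, 4 were, compared with 6 with the slide as a block and 5 with only the groups compared.

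The largest rises with Dox, named by rank, held chemokine and globin genes together with genes of myeloid cells. Ccl9, a chemokine of myeloid cells, read 9.33, 8.38 and 7.05 in induced HE2 and 13.39 and 12.08 in induced progenitors and rose by 4.48 ± 0.56 (adjusted P = 4e-05). Ccl3 read 8.40, 8.08 and 6.86 in HE2 and 11.07 and 11.32 in progenitors and rose by 3.41 ± 0.36 (adjusted P = 9.8e-06). Induced HE2 array 3 was the lowest array for both, and without it the rises were 3.88 and 2.95 and passed. Pirb, an inhibitory immune receptor, rose by 3.43, with values of 6.01 to 6.46 in HE2 and 9.39 and 9.99 in progenitors, and Siglecf, a sialic acid receptor of eosinophils that was well above background on 2 of 3 HE2 arrays, rose by 3.22. Others among the 15 largest rises were those of Hp, Tuba8, Adgrg5, Emilin2, Ccl6 and Cd52, from 3.22 to 3.81, and of Klf1 and 3 alpha globin genes. Of the 15, 12 passed in each of 20 alternative analyses, and Ccl6, Emilin2 and Hp failed when only the groups compared were fitted. All 15 were also upregulated without Dox, with Ccl9, Ccl3, Pirb and Siglecf rising by 2.97, 2.54, 2.82 and 2.46. The difference between the changes with and without Dox passed for none of them.

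Blood transcription factors rose in part. Of the 28 tested of 29, 9 were upregulated and none was downregulated (median 0.96), and 7 were upregulated without induced progenitor array 2, 6 with the slide as a block and 4 with only the groups compared. Klf1, the master regulator of erythroid genes, read 6.93, 7.32 and 6.97 in induced HE2 and 9.96 and 10.53 in induced progenitors and rose by 3.17 ± 0.34 (adjusted P = 1.14e-05). Spi1, which encodes PU.1, the master regulator of myeloid genes, read 5.79, 7.16 and 5.14 in HE2 and 9.05 and 8.13 in progenitors and rose by 2.56 ± 0.41 (adjusted P = 0.000327). For both genes the groups did not overlap, and Spi1 was well above background on 2 of the 3 HE2 arrays. Nfe2, a factor of erythroid cells and megakaryocytes, rose by 2.19, Zbtb16 by 2.32 and Cebpe, a factor of late granulocyte development, by 1.39.

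The erythroid and megakaryocytic factors Gata1 and Gfi1b rose by 1.74 (adjusted P = 0.00984) and 1.47 (adjusted P = 0.0055), and both missed the threshold when either progenitor array was left out, at 2.02 and 1.46 for Gata1 without array 1 and array 2 and 1.63 and 1.32 for Gfi1b. Runx1 read 12.47, 12.82 and 12.93 in induced HE2 and 14.38 and 13.81 in induced progenitors, a difference of 1.35 that did not pass (adjusted P = 0.0283). Myb, required for definitive blood progenitors, behaved alike, with a difference of 1.38 (adjusted P = 0.0151). How far the mouse Runx1 probe reads the RUNX1 part of the human transgene was not tested. Cebpa and Irf8, which direct granulocyte and monocyte fates, changed by 0.69 and 0.45 with Dox, below the threshold, and rose by 1.91 and 1.73 without Dox. The test of the difference between the 2 changes did not pass for either gene (-1.22 and -1.29).

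Erythroid genes rose in part. Of the 24 tested of 25 globin and erythroid genes, 11 were upregulated and none was downregulated (median 1.25), 10 without induced HE2 array 3, 8 without induced progenitor array 2 and 7 with the slide as a block. Hba-x, the embryonic alpha-like globin, read 9.27, 9.77 and 9.88 in induced HE2 and 13.85 and 13.59 in induced progenitors and rose by 4.08 ± 0.48 (adjusted P = 2.5e-05). Hba-a1 and Hba-a2, the adult alpha globins, rose by 4.20 and 3.52. These 2 genes are near-identical copies and their probes may each read both, so that their separate values are uncertain. Hbb-y and Hbb-bh1, the embryonic beta-like globins, already read 15.8 to 16.5 and 18.2 to 18.4 in induced HE2, and changed by 1.25 and 0.26 without passing. Hbb-bs, an adult beta globin, rose by 1.89. Kel, a red cell surface protein, read 6.53, 6.25 and 6.44 in HE2 and 8.95 and 9.18 in progenitors and rose by 2.66 ± 0.36 (adjusted P = 7.95e-05), without overlap between the groups. Rhag was upregulated, but it was not well above background on any induced HE2 array or on 1 of the 2 induced progenitor arrays, so that no size is given, and it missed the threshold in 9 of 19 alternatives. Alas2, Tfrc and Epor, which serve haem synthesis, iron uptake and the response to erythropoietin, changed by 1.15, 1.08 and 0.63, below the threshold.

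Of 23 megakaryocyte and platelet genes, 7 were upregulated and 1, Clec1b, was downregulated (median 0.92). Clec1b, a platelet receptor, fell by 1.28 and did not pass without induced HE2 array 3 (1.07) or induced progenitor array 1 (0.67). A second probe for Clec1b, nearly as bright, changed by -1.04, and another, dimmer probe by -0.66. The count of upregulated genes was 5 without induced HE2 array 3, 3 without induced progenitor array 2 and 4 with the slide as a block or with only the groups compared. Gp5, a subunit of the platelet receptor for von Willebrand factor, read 7.75, 8.13 and 7.45 in induced HE2 and 9.97 and 11.20 in induced progenitors and rose by 2.80 ± 0.28 (adjusted P = 6.13e-06). Gp1bb, another subunit, rose by 2.27, and its dimmer probes changed by 0.39 and 0.46. Induced progenitor array 2 was the higher of the 2 progenitor arrays for both. Pf4, a platelet chemokine, and Itgb3, the beta chain of the fibrinogen receptor, changed by 0.56 and 0.92 and did not pass. Of the 12 tested of 17 mast cell and basophil genes, 4 were upregulated (median 0.64), 2 were without induced HE2 array 3 and 1 was without induced progenitor array 1. Il1rl1, the receptor for interleukin 33, rose by 2.72 and Cpa3, the mast cell carboxypeptidase, by 2.03, and neither passed in every analysis that left out 1 progenitor array (2.35 for Il1rl1 without array 2, 1.73 for Cpa3 without array 1). The defining mast cell genes Ms4a2, Fcer1a and Cma1 were not well above background on any of the 5 induced arrays.

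**Figure D3:**
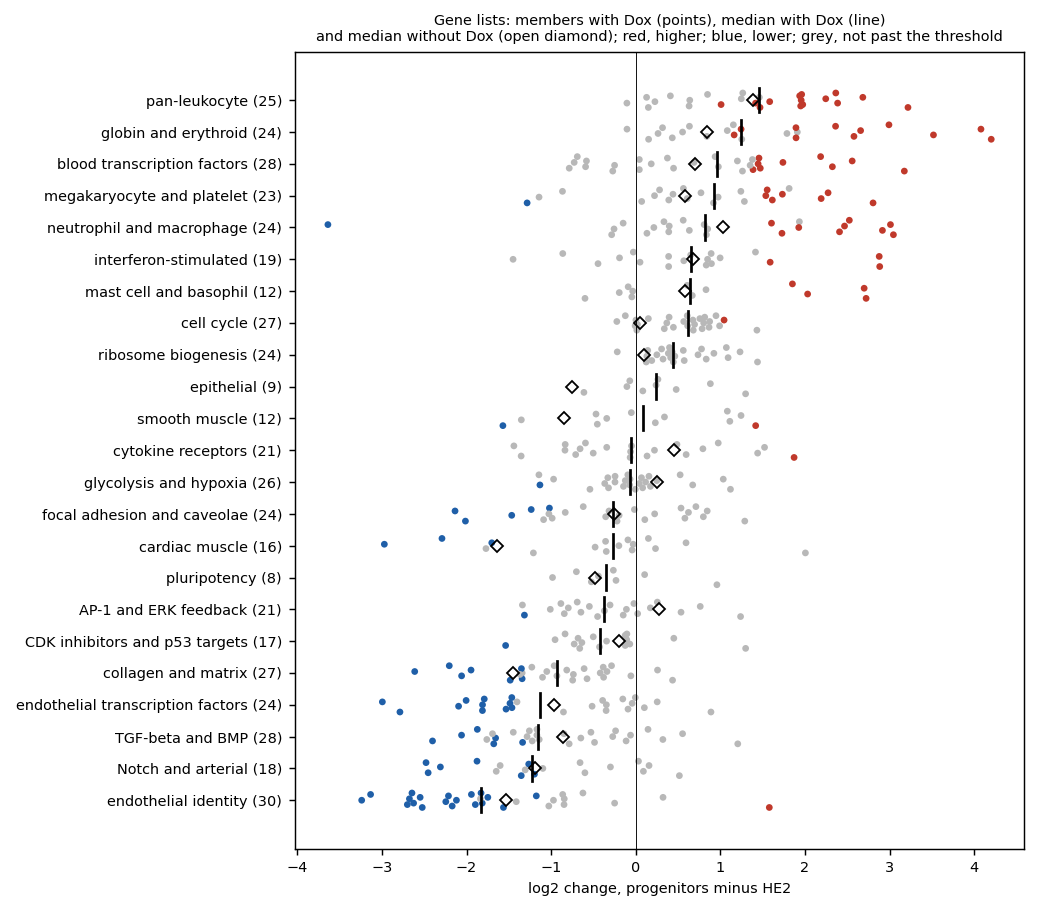
The x axis is the log2 change from HE2 to progenitors and each row is 1 gene list with the number of its members tested. Points are the changes of members with Dox (red, upregulated; blue, downregulated; grey, not past the threshold), black lines their medians with Dox and open diamonds their medians without Dox, with medians from -1.83 for endothelial identity to 1.46 for pan-leukocyte genes.

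Other lists held few called genes. Of all genes tested 7.36% were called, 2.02% upregulated and 5.34% downregulated. Apart from the interferon-stimulated genes (15.8%), 0 to 5.88% of each list in this paragraph was called, so that these counts say little about the members. Of 27 tested cell cycle genes 1, Mcm2, a subunit of the replicative helicase, was upregulated (1.04) and none was downregulated, with a median of 0.61, and Mcm2 did not pass without induced HE2 array 3 (0.92) or induced progenitor array 2 (0.76). The median of 24 ribosome biogenesis genes was 0.44 and none was called. Their mean level on induced HE2 array 3 was 11.71, compared with 12.52 and 12.63 on induced HE2 arrays 1 and 2. The induced progenitor arrays read 12.96 and 12.86, so that the difference in mean level rests in part on induced HE2 array 3. Of 19 tested interferon-stimulated genes 3 were upregulated (median 0.65), Usp18 by 2.88, Ifitm1 by 2.88 and Ifit1 by 1.59, and there were 6 without induced progenitor array 2 and 5 with the slide as a block. Ifit1 was well above background on 1 of 3 induced HE2 arrays and did not pass without induced progenitor array 1 (1.43). Of 21 tested cytokine receptor genes 1 was upregulated (Il10ra, by 1.87, or 1.75 and not past the threshold without induced progenitor array 2), with a median of -0.06. Of 21 tested AP-1 and ERK feedback genes 1 was downregulated (Dusp6, by 1.32, which did not pass without induced HE2 array 3 (1.35) or induced progenitor array 2 (0.77)), and of 17 CDK inhibitor and p53 target genes 1 (Cdkn1c, by 1.54, which did not pass without induced HE2 array 3, at 1.502, or without either progenitor array, at 1.47 and 1.61), with medians of -0.37 and -0.43. Of 26 glycolysis and hypoxia genes 1 was downregulated (P4ha1, by 1.13, or 0.77 and not past the threshold without induced progenitor array 2), with a median of -0.07.

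Markers of cells outside the blood and endothelial lineages were also read. Of 16 tested cardiac muscle genes 3 were downregulated (median -0.27), and these were Gata4, Hand2 and Gata6, transcription factors that mesoderm and endocardium also use, by 2.97, 2.29 and 1.70. Hand2 fell by 2.04 and did not pass without induced progenitor array 2, and the count was 1 with the slide as a block. The sarcomere genes Tnnt2, Actc1 and Myh6 changed by -0.35, -0.36 and 0.23. Of 12 tested smooth muscle genes 1 was upregulated (Pdgfrb, by 1.42, which did not pass without induced HE2 array 3, at 1.34, or without either progenitor array, at 1.44 and 1.39) and 1 downregulated (Cald1, by 1.57, or 1.23 and not past the threshold without induced progenitor array 2), with a median of 0.09. None of 9 tested epithelial and 8 tested pluripotency genes was called (medians 0.24 and -0.35). The summed linear intensity of 4 smooth muscle markers was 10345 to 10976 in induced HE2 and 5407 and 15777 in induced progenitors, and that of 5 mesenchymal markers was 1402 to 3038 and 993 and 2453, so that neither separated the groups. That of 4 macrophage markers was 4831 to 11149 in HE2 and 2409 and 3208 in progenitors, with Mrc1 among them. Mrc1 fell by 3.64, while the others, Csf1r, Lyz2 and Adgre1, changed by 1.60, 1.93 and 0.63. The lower sum thus comes from Mrc1 alone, and Lyz2 and Adgre1 did not pass the threshold. The sum of 4 epithelial markers was 2927 to 3677 in HE2 and 4163 and 9266 in progenitors, and that of 4 pluripotency markers was 350 to 470 and 483 and 737. Both were thus higher in progenitors without overlap, as 14.8% of single genes tested were, and their part in other results was not tested. Krt18, by far the brightest epithelial marker, read 11.40 to 11.79 and then 13.11 and 11.90. Krt18 and Krt8 changed by 0.88 and 1.30 and did not pass. In uninduced cells the epithelial sum was 12762 to 30038 in HE2 and 8940 and 13326 in progenitors. Epcam and Cdh1, which define epithelium, were not well above background on any induced HE2 array, and Cdh1 was not on any induced progenitor array. Among the pluripotency markers, Nanog changed by 0.96 and Dppa5a by -0.44, both below the threshold. Pou5f1 and Zfp42 did not pass the filter on low values, and Zfp42 was not well above background on any induced progenitor array.

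The same step was measured in uninduced cells, where 270 genes were upregulated (1.78%) and 550 were downregulated (3.62%), 5.39% in all. Over all genes tested, the progenitor arrays lay above all HE2 arrays for 17% and below them for 20.3%. These arrays share no sample with the induced ones. Of the genes upregulated with Dox, 157 were also upregulated without Dox, which was 51.1% of the 307, 58.1% of the 270 and 1.03% of all genes tested. Of the genes downregulated with Dox, 368 were also downregulated without it, 45.3% of the 812, 66.9% of the 550 and 2.42% of all genes tested. Hpgd and Rbm47 were the 2 genes called in opposite directions (0.0132%), of which Rbm47 was looked up after its values were seen. Genes called with Dox moved the same way without Dox in 95.1% of cases in each direction, and this share was not computed for all genes tested. The medians of the called genes with and without Dox were 1.61 and 1.36 for the upregulated and -1.61 and -1.08 for the downregulated genes. The called genes were chosen for their change with Dox, which favours the first of each pair of medians. Across the genes tested the changes with and without Dox correlated (Pearson's r = 0.655, Spearman's rho = 0.536), where genes are not independent replicates. Leaving out 1 uninduced array moved the 550 downregulated genes to between 321 and 611, the lowest without uninduced progenitor array 2.

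The same lists were counted in uninduced cells. Of the endothelial identity genes 20 were downregulated without Dox (median -1.53), of the pan-leukocyte genes the median was 1.38, and of the Notch and arterial genes and endothelial transcription factors the medians were -1.19 and -0.96. Without Dox, 6 erythroid, 5 megakaryocyte and no mast cell genes were upregulated, with medians of 0.85, 0.59 and 0.58, compared with 1.25, 0.92 and 0.64 with Dox. The difference between the 2 changes, tested gene by gene as described below, passed for 1 erythroid gene and for none of the megakaryocyte and mast cell genes. Of the cardiac muscle genes 7 were downregulated without Dox (median -1.64), and the difference passed for none of them. Of the collagen and matrix genes 11 were downregulated without Dox (median -1.46), and it passed for 3, Col1a1, Fbn1 and Fn1.

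**Figure D4:**
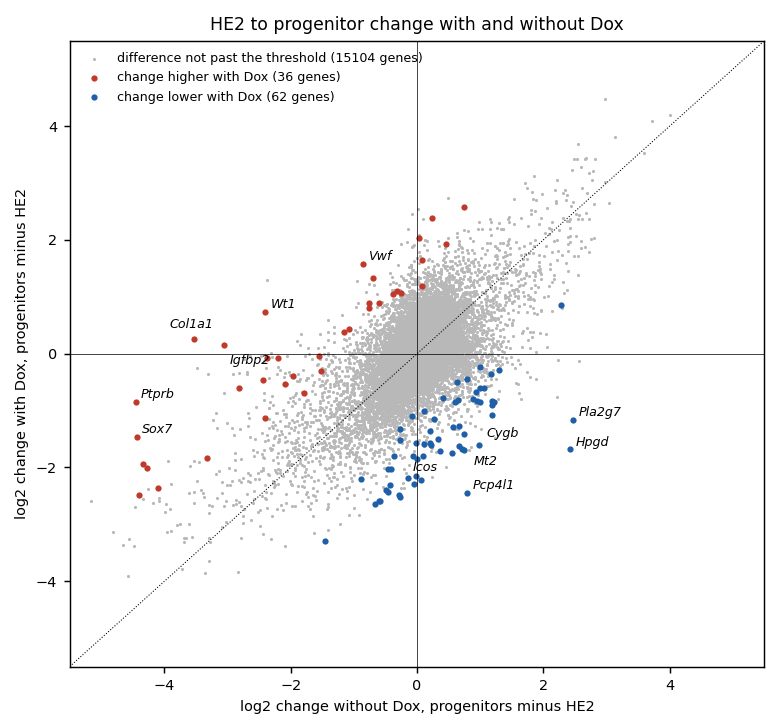
Each point is 1 gene, with its log2 change from HE2 to progenitors without Dox on the x axis and with Dox on the y axis, and the dotted line marks equal changes. The changes correlate across genes (r = 0.655), and the coloured points are the 36 genes whose change was higher (red) and the 62 whose change was lower (blue) with Dox than without.

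The difference between the 2 changes was tested as an interaction term, and 98 genes passed (0.645%), 36 with a higher and 62 with a lower change with Dox. The adjusted P reached 0.147 among them and 22 genes passed at an adjusted P of at most 0.05. The count was 310 without induced progenitor array 1, 72 without induced progenitor array 2, 80 without induced HE2 array 3, 62 without uninduced HE2 array 1 and 55 without uninduced progenitor array 2. The 36 genes included 3 endothelial identity genes, Ptprb, Vwf and Ramp2, and 2 endothelial transcription factor genes, Sox7 and Bcl6b. Ptprb, the receptor phosphatase that acts on Tie2 (VE-PTP), read 14.95, 15.70 and 15.77 in induced HE2 and 14.52 and 14.73 in induced progenitors, compared with 12.83, 12.94 and 12.86 and then 8.49 and 8.35 in uninduced cells. It changed by -0.85 with Dox, below the threshold, and fell by 4.46 without Dox, a difference of 3.61 ± 0.44 (adjusted P = 0.0015). A second, dimmer probe for Ptprb fell by 1.79 with Dox. Sox7, a SOX factor of haemogenic endothelium, read 12.10, 12.81 and 12.55 and then 11.17 and 10.88 with Dox and 11.97, 12.09 and 11.64 and then 7.95 and 6.96 without, a difference of 2.98 ± 0.50 (adjusted P = 0.0143). Its fall of 1.46 with Dox did not pass without induced HE2 array 2 (1.30), induced HE2 array 3 (1.43) or either progenitor array (1.61 and 1.32). For both genes the induced progenitor arrays read more than 2 units above the uninduced progenitor arrays. Vwf rose with Dox and changed by -0.86 without Dox (not past the threshold), a difference of 2.44 ± 0.45 (adjusted P = 0.0313).

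Bcl6b, an endothelial repressor, had a difference of 2.27 (adjusted P = 0.127) and Ramp2 one of 1.49 (adjusted P = 0.142). Both fell with and without Dox, Bcl6b by 2.01 and 4.28 and Ramp2 by 1.83 and 3.32. Each missed the threshold in 13 of 26 alternatives, over which Bcl6b ranged from 1.80 to 2.68 and Ramp2 from 1.22 to 1.78. Leaving out induced progenitor array 2 was among these for Bcl6b, and leaving out induced HE2 array 3 or induced progenitor array 1 for Ramp2. For most members of the endothelial identity list the 2 falls did not differ past the threshold, and the median difference over the list was 0.24.

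In another pattern the uninduced HE2 arrays were the high group. Col1a1, the main chain of fibrillar collagen, read 5.74 to 7.01 in induced HE2 and 6.95 and 6.27 in induced progenitors, and 9.70, 10.48 and 8.64 in uninduced HE2 and 5.86 and 6.30 in uninduced progenitors. It was well above background on 1 of the 2 induced progenitor arrays. The difference was 3.79 ± 0.83 (adjusted P = 0.0795), and it missed the threshold without induced progenitor array 1 (3.45) or uninduced progenitor array 1 (3.56). Igfbp2, a binding protein for insulin-like growth factors, followed the same pattern (8.69 to 8.99 and then 9.60 and 8.35 with Dox, 11.95, 11.98 and 11.02 and then 8.02 and 9.16 without, difference 3.20, adjusted P = 0.0503) and missed the threshold without the same arrays (2.58 and 2.63). Wt1, a zinc finger factor of mesoderm, was instead highest with Dox, at 10.19 and 10.83 in 2 induced HE2 arrays and 10.78 and 11.71 in induced progenitors, compared with 8.39 to 9.07 and then 7.18 and 5.69 without. Its change differed by 3.14 (adjusted P = 0.114) in a fit that left out its spot on induced HE2 array 2, which was marked as an outlier, and without any 1 of 5 other arrays, induced HE2 array 1 and induced progenitor array 2 among them, it was 2.39 to 3.03 and missed the threshold. Among list members, Fbn1, which encodes fibrillin, fell by 1.95 with Dox and by 4.34 without (difference 2.39). Fn1 (fibronectin), Krt19 (a keratin) and Vegfa fell by 1.96, 2.82 and 2.09 without Dox and changed by -0.38, -0.61 and -0.54 with Dox, below the threshold, with differences of 1.58, 2.21 and 1.55. Of 26 alternatives, Fbn1 missed the threshold in 2 (over all of them 2.07 to 2.72), Vegfa in 4 (1.32 to 1.78), Fn1 in 7 (1.29 to 1.87) and Krt19 in 9 (1.83 to 2.60). Leaving out induced HE2 array 3 was among these for Krt19, induced progenitor array 1 for Vegfa and Krt19, and induced progenitor array 2 for Fn1.

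On the lower side, Hpgd, which inactivates prostaglandins, was 1 of the 2 genes called in opposite directions. It read 10.96, 10.19 and 10.44 in induced HE2 and 9.60 and 8.10 in induced progenitors, and 7.42, 7.32 and 7.55 in uninduced HE2 and 10.16 and 9.54 in uninduced progenitors. It fell by 1.68 with Dox and rose by 2.42 without, a difference of -4.10 ± 0.47 (adjusted P = 0.00129), although its fall of 0.93 without induced progenitor array 2 did not pass. Pcp4l1 fell by 2.44 with Dox, from 9.64, 8.86 and 10.38 to 7.37 and 6.997, and changed by 0.80 without Dox, below the threshold (difference -3.24, adjusted P = 0.0069). Mt2, a metallothionein, fell by 1.67 with Dox and changed by 0.72 without (difference -2.39, adjusted P = 0.0407), and its fall of 1.28 did not pass without induced progenitor array 2. For these genes the induced HE2 arrays were the high group and the uninduced HE2 arrays the low one. Hpgd, Pcp4l1, Mt2, Ptprb, Sox7 and Vwf kept their calls in this test in each of 26 alternatives.

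Pla2g7, a phospholipase that inactivates platelet-activating factor, Cygb, a globin of many tissues, and Icos, a co-stimulatory receptor, had differences of -3.64, -2.58 and -2.31 with adjusted P values of 0.0719, 0.101 and 0.0503. Pla2g7 missed the threshold without induced progenitor array 1 (-3.56) or uninduced progenitor array 1 (-2.91), and Icos without induced progenitor array 1 (-2.04). Cygb missed it without any 1 of 4 arrays, with values between -2.66 and -2.41, and induced HE2 array 3, at 11.25, was its highest array. Ptprr, among the largest falls with Dox, fell by 3.29 with Dox and by 1.46 without, and the fitted difference of -1.83 passed (adjusted P = 0.107). Because Ptprr was not well above background on either uninduced progenitor array (5.30 and 4.99), its fall without Dox has only a lower bound, and a larger fall with Dox cannot be read from this difference. Ndrg1, a gene that hypoxia induces, changed by -0.37 with Dox and rose by 1.17 without (difference -1.54). Ptprr missed the threshold in 9 of 26 alternatives, which gave -2.21 to -1.53 and included leaving out induced progenitor array 2, and Ndrg1 in 13, which gave -1.85 to -1.23 and included leaving out induced HE2 array 3 or induced progenitor array 2.

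**Figure D5:**
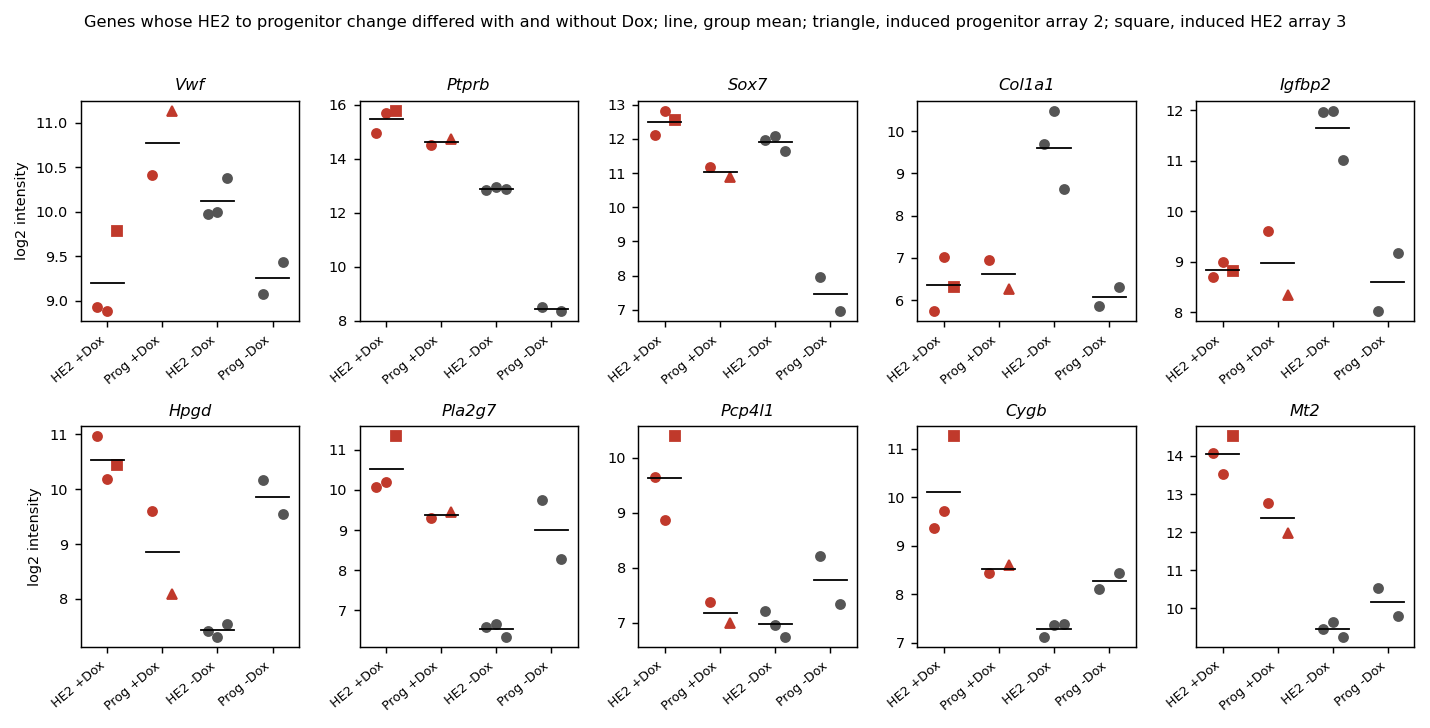
The y axis of each panel is the normalized log2 intensity of 1 gene, each point is 1 array (triangle, induced progenitor array 2; square, induced HE2 array 3) and the line is the group mean, for induced (red) and uninduced (grey) HE2 and progenitors. The means of Ptprb and Sox7 are 14.63 and 11.02 in induced progenitors and 8.42 and 7.46 in uninduced ones, and Hpgd falls with Dox and rises without it.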

How the data were processed

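RNA of sorted cells was hybridised to 1-colour Agilent mouse arrays. Deposited intensities are the authors' Feature Extraction output (10.7.3.1 in the file headers, 10.7.1.1 per the labels), the median spot and background signals without normalization, together with 0 or 1 spot flags. A deposited table of log2 values, which the authors background-corrected and quantile normalized, served as an alternative. No column was left without a sample.

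From the intensities, limma 3.58.1 in R 4.3.3 applied normexp correction (offset 16) and quantile normalization to all 23 arrays. Control spots and outlier spots were left out. The probe with the highest mean stood for each of 20145 named genes, and 15202 genes reached a log2 intensity of 6.5 on at least 1 array. Group means of 22 arrays were fitted with lmFit and eBayes (14 residual degrees of freedom), leaving out an additional technical array of uninduced progenitors. Calls needed an unadjusted P no higher than 0.001 together with a 2-fold change, as in the study's methods, and adjusted P values are Benjamini-Hochberg values of limma over all genes. The number of arrays limits the precision.

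Named were the 15 largest rises and falls with Dox, the 6 largest differences in each direction, and members of 23 gene lists that were called or are core members, and some of these genes are not reported here. The members and lists were chosen with earlier results of these data known. The scripts were checked on simulated data with 200 genes given a log2 change of 1.5, of which 75.5% were recovered for the induced step and 55% for the difference with and without Dox, over 14920 genes. Alternatives varied background, scaling, filter, threshold, batch block and the arrays included, and a slide block with the additional array was chosen after seeing the data. Promoters came from RefSeq (GRCm38.p6). Figures were drawn with matplotlib 3.10.9.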

Additional observations from a re-analysis of the deposited data

Results flagged for a closer look

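The change from HE2 to progenitors differed with and without Dox for 98 genes by the interaction term of limma. Those that are named were higher with Dox for Col1a1 (3.79), Ptprb (3.61), Igfbp2 (3.20), Wt1 (3.14), Sox7 (2.98), Vwf (2.44), Fbn1 (2.39), Bcl6b (2.27), Krt19 (2.21), Fn1 (1.58), Vegfa (1.55) and Ramp2 (1.49). They were lower with Dox for Hpgd (-4.10), Pla2g7 (-3.64), Pcp4l1 (-3.24), Cygb (-2.58), Mt2 (-2.39), Icos (-2.31), Ptprr (-1.83) and Ndrg1 (-1.54). Ptprr was not well above background on either uninduced progenitor array, so that its difference cannot be read as a larger fall with Dox. Second, dimmer probes changed with Dox by -1.79 for Ptprb, -1.03 for Hpgd, -0.63 for Icos and 0.21 for Pla2g7, compared with -0.85, -1.68, -1.75 and -1.16 for the probes used. No group of these comparisons had more than 3 arrays, so that single arrays were not tested for lying apart.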

How the results depend on the processing

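No called change of a named gene turned direction under an alternative. For called changes with Dox, leaving out 1 array could not turn the direction, because the groups did not overlap. With Dox, the 307 upregulated and 812 downregulated genes became 120 and 303 when only the groups compared were fitted, of which 416 of 423 were among the original calls. A 2-fold change alone gave 778 upregulated genes. With the slide or the scan day as a block 491 and 521 genes were downregulated, and the change then rests on induced progenitor array 1. Leaving out each array in turn gave 251 to 432 upregulated genes (lowest without induced progenitor array 2, highest without induced progenitor array 1) and 521 to 832 downregulated genes (lowest without induced progenitor array 2). Without Dox, a 2-fold change alone gave 558 and 841 genes, fitting only the groups compared gave 365 downregulated genes, and leaving out each array gave 196 to 251 and 321 to 611. The 98 genes whose change differed became 1203 by a 2-fold change alone, 22 at an adjusted P of at most 0.05, 62 with the early arrays normalized alone, 46 with only the groups compared, 64 with the slide as a block and 55 to 310 without 1 array. With the replicate number as a block the counts were 297 and 812 with Dox, 277 and 566 without and 94 for the difference. Deviations of same-numbered induced HE2 and progenitor arrays from their group means correlated at r = 0.163 and 0.118 over 2 pairs. With 2 progenitor arrays these deviations mirror each other, and they also hold the difference between slides. The check thus cannot decide whether the numbers mark pairs, and the main fit did not use them as pairing. Medians of the cytokine receptor, glycolysis and smooth muscle lists, all near 0, changed sign between alternatives. Signal over background limits genes that were not well above background, and the cause of these changes was not tested.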
